A study of Mus musculus with 6 samples.

Results

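The 10 genes described here present antigens to T cells and were picked by name from the pathway of the major histocompatibility complex (MHC), called H2 in the mouse. H2-Aa, H2-Ab1, H2-Eb1, H2-DMa, Cd74 and Ciita serve class II, and H2-K1, H2-D1, B2m and Tap1 serve class I. All 10 were found by Ensembl identifier among the 52636 genes of the count table, and all 10 had an adjusted p-value. Bulk RNA-seq had been performed on thoracic aortas of 12-week-old mice to ask which transcripts respond when smooth muscle cells (SMCs) lose their TGF-β receptors for a short time. The 4 WT libraries came from untreated C57BL/6J mice. The 2 KO libraries came from Tgfbr1/2iSMCKO mice, which carried the floxed alleles Tgfbr1f/f and Tgfbr2f/f, the transgene Myh11-CreERT2 and the reporter mT/mG. These mice received 5 days of intraperitoneal tamoxifen (2 mg/d) when 11 weeks old. The transgene sits on the Y chromosome, so males were used. Cre in these mice is driven by the SMC promoter Myh11, so that cells other than SMCs keep intact receptor genes, and the WT controls had neither the floxed alleles, the transgene, the reporter nor tamoxifen. The labels list C57BL/6J as the strain of both groups. The paper states that the compound mutant strains had been bred onto that background over several generations. WT-1 to WT-4, KO-1 and KO-2 name libraries by label, and the table's column codes were matched to the labels by their numbering.

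MHC class I molecules stand on nearly all nucleated cells and show peptides made in the cytosol to CD8+ T cells. Class II molecules stand mainly on dendritic cells, macrophages and B cells and show peptides taken up from outside to CD4+ T cells. Interferon γ raises the transcription of both classes, and the aortic wall holds macrophages in its adventitia.

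Letters upstream of 5 of the genes are shown because they carry the elements through which the 2 classes are known to be switched on. Sequences are from RefSeq on GRCm38.p6, where 7 of the 10 genes had an entry, and run 5′ to 3′ on the strand of the gene. Capitals in H2-K1 and H2-D1 mark the κB-type letters GGGATTCCC and the interferon-response type motif TTTCANTT, capitals in B2m mark the latter read on the other strand, and capitals in H2-Aa and H2-Eb1 mark the letters GCAACT of the X box and CTGATTGG of the Y box.
H2-K1, chr17:34000420-34000467, minus strand: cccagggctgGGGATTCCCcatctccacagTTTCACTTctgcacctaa
H2-D1, chr17:35262914-35262961, plus strand: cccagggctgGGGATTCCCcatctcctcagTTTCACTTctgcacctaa
B2m, chr2:122147540-122147567, plus strand: aagaacatgaAACTGAAAatgggaaagt
H2-Aa, chr17:34287857-34287914, minus strand: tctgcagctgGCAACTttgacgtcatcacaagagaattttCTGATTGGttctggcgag
H2-Eb1, chr17:34305766-34305822, plus strand: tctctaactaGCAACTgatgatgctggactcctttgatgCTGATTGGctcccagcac
The stretches of H2-K1 and H2-D1 were identical at 47 of 48 positions. Each motif was searched on both strands in the 250 bases before the start of 27025 genes. Members without an entry could not be searched, so a member not named for a motif need not lack it. The κB-type letters were found in 0.311% of genes, and among the members in H2-K1 and H2-D1. TTTCANTT was found in 5.78% of genes, and among the members in H2-K1, H2-D1 and B2m. CTGATTGG was found in 4.07% of genes, and among the members in H2-Aa, H2-Eb1, H2-D1 and Tap1. GCAACT was found in 9% of genes, and among the members in H2-Aa, H2-Eb1 and Tap1. The motifs were chosen after the sequences were seen, and a match describes letters and does not show binding.

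Total estimated counts ran from 19650983 in KO-2 to 28860598 in KO-1. Mitochondrial transcripts took 11.7% of the counts in KO-2 and between 2.62% and 4.44% in the other libraries. The SMC markers Myh11 and Acta2 were abundant in all 6 libraries, with normalised counts (counts divided by DESeq2 size factors) of at least 232340.0 and 328090.0. Normalised counts of the targeted genes were 3858 to 5420.2 in WT, 5780.4 in KO-1 and 4568 in KO-2 for Tgfbr1, and 5327 to 7042 in WT, 5784 in KO-1 and 5937 in KO-2 for Tgfbr2. Such whole-gene counts do not check the KO label, since they include exons that Cre leaves in place and cells without Cre.

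Levels of the 10 genes in the WT aorta were compared per length, in TPM computed from the counts and exon lengths. B2m, the light chain shared by all class I molecules, led with 1747 ± 369 TPM (SD, n = 4), above 99.7% of genes with at least 1 TPM. The class I heavy chains followed with 394 ± 57.7 TPM for H2-D1 and 194 ± 31.5 TPM for H2-K1. Cd74, the invariant chain that guards the class II groove, stood between them at 319 ± 84.4 TPM. The class II chains H2-Eb1 (64 ± 23.5 TPM), H2-Ab1 (50.4 ± 13.1 TPM) and H2-Aa (42.8 ± 12.1 TPM) came next. Tap1, a subunit of the peptide transporter into the endoplasmic reticulum, and H2-DMa, a chain of the peptide exchange factor, had 7.41 ± 1.66 and 5.88 ± 1.5 TPM. Ciita, the class II transactivator, was lowest at 0.734 ± 0.372 TPM. Along this order the WT ranges did not overlap between B2m and H2-D1, H2-K1 and H2-Eb1, H2-Aa and Tap1, or H2-DMa and Ciita. They overlapped between all other neighbours, although H2-D1 was above Cd74 and Cd74 above H2-K1 in 4 of 4 WT libraries.

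**Figure D1:**
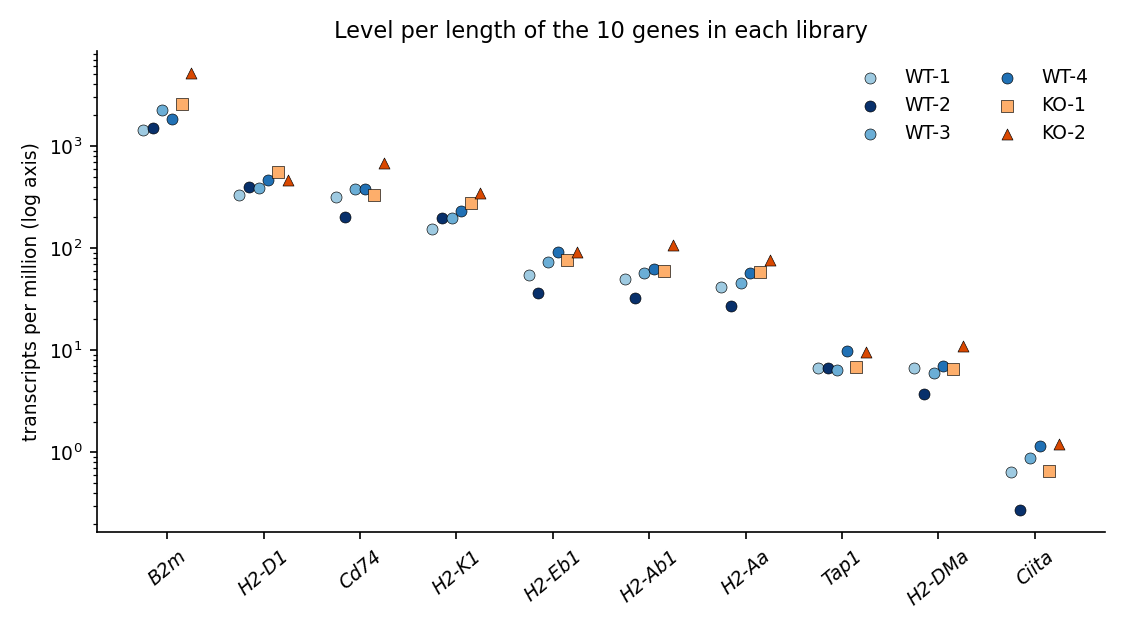
Level of each of the 10 genes in TPM (log axis), 1 symbol per library, with WT libraries as blue circles, KO-1 as a light orange square and KO-2 as a dark orange triangle. Genes are ordered by their WT mean, from B2m at 1747 to Ciita at 0.734, and WT-2 is the lowest circle for each class II gene.

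The class II genes were first compared among the WT mice themselves. Cd74 had normalised counts of 4140 in WT-1, 2337 in WT-2, 4448 in WT-3 and 4287 in WT-4. H2-Ab1, the class II β chain of the A molecule, had 994, 578, 1027 and 1073 in the same order. WT-2 was thus the low library for both genes, while the other 3 lay close together. H2-Aa, the α chain that pairs with H2-Ab1, had 1229, 718, 1223 and 1436. H2-Eb1, a β chain whose α partner is a pseudogene in C57BL/6 mice, had 826, 495, 1007 and 1182. H2-DMa had 181, 89.8, 144 and 163, and Ciita had 47.2, 18 and then 58.9 and 73.1. All 6 class II genes were lowest in WT-2, which was the lowest WT library for 18.7% of all genes tested. The highest WT value was between 1.86 and 2.39 times the lowest for 5 of these genes and 4.07 times for Ciita.

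The class I genes were compared across the same 4 libraries. Listed from WT-1 to WT-4, normalised counts of H2-K1 were 3508, 3988, 4072 and 4529.5, and H2-D1 had 6572, 7113, 6947 and 8076.5. B2m had 9604.5, 8886, 13504 and 10517, and Tap1 had 284, 252, 248 and 362. The highest WT value was 1.29, 1.23, 1.52 and 1.46 times the lowest for these genes. WT-2 was the lowest WT library for B2m alone among them. The coefficient of variation over WT was 8.93% for H2-D1 and 10.4% for H2-K1, against 24.9% to 47.5% for the class II genes, with a median of 16.1% over all genes tested. This order rested on WT-2. Without it, in a check added after the data were seen, the coefficient of variation fell to 3.59% for Cd74, 3.87% for H2-Ab1, 9.34% for H2-Aa, 11.5% for H2-DMa, 17.7% for H2-Eb1 and 21.7% for Ciita, against 12.7% for H2-K1, 10.9% for H2-D1, 18.2% for B2m and 19.6% for Tap1. Cd74, H2-Ab1 and H2-Aa then varied less than every class I gene. That check left out the lowest WT library of all 6 class II genes, so their variation had to fall. Class I values fell likewise with other libraries left out. They were 4.03% for H2-D1 and 7.67% for Tap1 without WT-4, 8.45% for B2m without WT-3 and 6.94% for H2-K1 without WT-1. The check thus does not rank the 2 classes by variation.

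Disruption of TGF-β signaling was then examined by comparing KO with WT. Of the 10 genes, 2 passed the DESeq2 adjusted p-value, B2m and H2-K1, both higher in KO, where 10.4% of all genes tested passed in either direction and 5.71% in the higher direction. B2m alone also exceeded a 2-fold change, as did 5.64% of genes in either direction and 3.54% in the higher direction. The groups did not overlap for H2-K1 and H2-D1, with both KO libraries above every WT library, as for 17.9% of all genes tested. Fitted log2 fold changes of the 10 genes were all above 0, with medians of 0.64 over the class II genes and 0.52 over the class I genes, against 0.01 over all genes tested. The share of genes that passed varied between fits, from 3.65% in edgeR without a filter and 6.18% with it to 12.6% in DESeq2 with a minimum mean count of 10. It was 10.2% with TMM scaling, 10% with total counts, 10.4% without Cook's distance handling, 4% with a replicate block, and 8.11%, 7.39%, 10.3% and 10.2% without WT-1, WT-2, WT-3 and WT-4.

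B2m had normalised counts of 13293 in KO-1 and 36114 in KO-2, against 8886 to 13504 in WT. KO-1 thus lay inside the WT range and KO-2 far above it, although by TPM KO-1 (2556) was also above the WT maximum (2235). The means were 24704 ± 16137 (SD, n = 2) in KO and 10628 ± 2030.3 (SD, n = 4) in WT. The log2 fold change was 1.22 ± 0.32 (SE), with 0.00292 as the DESeq2 adjusted p-value. Without KO-2 it was 0.33 with an adjusted p-value of 0.526, and edgeR's quasi-likelihood test gave an adjusted p-value of 0.0856. Over 13 alternative fits the adjusted p-value of B2m ran from 2.22e-10 to 0.526. B2m (ENSMUSG00000060802.8) lies on chromosome 2 from 122147686 to 122153083, outside the H2 region, and overlaps Patl2, which had 0 counts in every library.

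H2-K1 had normalised counts of 4856 in KO-1 and 8194 in KO-2, both above the WT maximum of 4529.5. The difference amounted to 0.70 ± 0.23 (SE) on the log2 scale, and DESeq2 gave 0.0248 as the adjusted p-value. The call was lost without KO-2 (log2 fold change 0.28, adjusted p-value 0.479), under edgeR (adjusted p-value 0.0956) and without WT-1, WT-2 or WT-3 (adjusted p-values 0.103, 0.0974 and 0.0664), in a range from 4.88e-06 to 0.479. H2-D1 had 8661.5 in KO-1 and 9537 in KO-2 against 6572 to 8076.5 in WT. Its KO values were above all WT values but close to them, and its log2 fold change of 0.34 ± 0.16 (SE) did not pass in DESeq2 (adjusted p-value 0.175). Per length, the TPM of H2-D1 in KO-2 (459) lay below that in WT-4 (468), so that the order depends on scaling. H2-K1 (chromosome 17, 33996017 to 34000347) and H2-D1 (chromosome 17, 35262730 to 35267499) are close copies of each other and of other class I genes. Their counts are uncertain to the extent that reads were shared among such copies.

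Tap1 had normalised counts of 227 in KO-1, below every WT library, and 424 in KO-2, above every WT library. By TPM both KO libraries (6.85 and 9.61) lay inside the WT range of 6.44 to 9.89. Its log2 fold change was 0.18 ± 0.31 (SE), and it did not pass in DESeq2 (adjusted p-value 0.805). Tap1 overlaps the proteasome gene Psmb9 on the opposite strand, and whether counting used strand is not given in the sources used here. H2-DMa overlaps Brd2 and Ciita overlaps Dexi in the same manner. Counts before scaling were 4130 to 6212 for Brd2 against 100 to 246 for H2-DMa. They were 345 to 782 for Dexi against 20 to 75 for Ciita, and 80 to 275 for Psmb9. Whether reads of these neighbours entered the counts of the members was not tested.

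None of the 6 class II genes passed the adjusted p-value. In DESeq2 0 of 6 did so and 3 had an unadjusted p-value under 0.05, while in edgeR with its filter 0 of 6 reached either. Cd74 had normalised counts of 3365 in KO-1 and 9268 in KO-2, against 2337 to 4448 in WT. KO-1 was again within the WT range and KO-2 was above it. The log2 fold change was 0.73 ± 0.35 (SE), with a DESeq2 adjusted p-value of 0.179, and without KO-2 it was -0.17 (adjusted p-value 0.859), with a range of adjusted p-values from 0.00186 to 0.859. H2-Aa had 1334 in KO-1 and 2343 in KO-2, and H2-Ab1 had 928 and 2205. Both were within the WT range in KO-1 and above it in KO-2, with log2 fold changes of 0.67 ± 0.30 and 0.77 ± 0.33 (SE) and DESeq2 adjusted p-values of 0.137 and 0.129. H2-Eb1 had 888 and 1444, H2-DMa 136 and 302, and Ciita 37.9 and 92.2. Log2 fold changes of H2-Eb1, H2-DMa and Ciita were 0.41 ± 0.32, 0.60 ± 0.39 and 0.39 ± 0.60 (SE), with DESeq2 adjusted p-values of 0.496, 0.392 and 0.771. For each of these 6 genes KO-1 lay within the WT range by normalised count (by TPM, H2-Aa had 58.1 in KO-1 and 56.5 in WT-4), as for 7009 of the 17070 genes tested, and KO-2 lay above it. Ciita rested on 20 to 75 counts a library, so its values were the least precise.

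**Figure D2:**
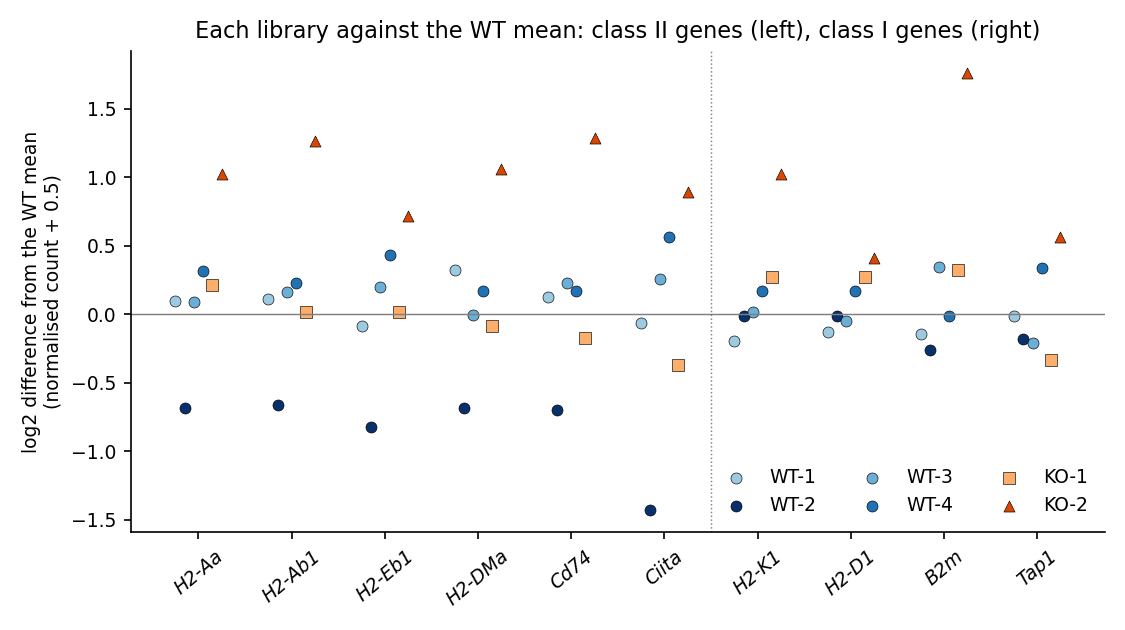
Log2 difference of each library from the WT mean (normalised count plus 0.5) for the 6 class II genes (left of the dotted line) and the 4 class I genes (right), with WT as blue circles, KO-1 as squares and KO-2 as triangles. KO-2 is the highest symbol for all 10 genes, with the largest difference, 1.76, at B2m, and the square of KO-1 lies among the circles for all 6 class II genes.

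KO-2 exceeded every WT library in all 10 genes by normalised count (by TPM in all but H2-D1 and Tap1), as it did in 32.8% of all genes tested, and KO-1 exceeded every WT library in H2-K1 and H2-D1 (31.3% of genes tested; by TPM also in B2m and H2-Aa). The median log2 difference from the WT mean over class II genes was -0.04 for KO-1 and 1.04 for KO-2. Over class I genes it was 0.27 and 0.79. With KO-1 left out, 5 of the 10 genes passed the DESeq2 adjusted p-value (B2m, H2-K1, Cd74, H2-Ab1 and H2-Aa), as 15.9% of genes tested did. With KO-2 left out, DESeq2 found 0 of 10 past the adjusted p-value and 0 of 10 with an unadjusted p-value under 0.05, against 7.02% of genes past the adjusted p-value. In these fits the lone KO library was assumed to vary like the WT libraries.

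Ratios within a library do not depend on its scaling. The ratio of H2-K1 to H2-D1 counts was 0.534 to 0.586 in WT, 0.561 in KO-1 and 0.859 in KO-2. The ratio of B2m to the summed heavy chains H2-K1 and H2-D1 was 0.8 to 1.23 in WT, 0.983 in KO-1 and 2.04 in KO-2. In KO-1 both ratios were thus at the WT level, whereas in KO-2 both were above every WT value. The ratio of H2-Aa to H2-Ab1 was 1.19 to 1.34 in WT, 1.44 in KO-1 and 1.06 in KO-2. Cd74 relative to the sum of H2-Aa and H2-Ab1 was 1.71 to 1.98 in WT, 1.49 in KO-1 and 2.04 in KO-2. In these class II ratios both KO libraries lay outside the WT range, on opposite sides of it.

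Class II transcripts were set beside marker lists of cell types, whose markers need not come only from cells that carry class II. Of 10 macrophage markers, 9 passed the DESeq2 adjusted p-value, all higher in KO, and both KO libraries exceeded every WT library in 8. Over all genes tested the shares were 5.71% in the higher direction and 17.9%. With the replicate number as a block, 2 passed in DESeq2. Without KO-2 the number that passed was 5, without KO-1 it was 6, and in edgeR it was 5. Mrc1, the mannose receptor, had a log2 fold change of 1.41 and C1qa, a complement chain made by resident macrophages, one of 0.80 (DESeq2 adjusted p-values 2.15e-11 and 8.29e-05). Lyve1, Adgre1, Cd68, C1qb, C1qc, Fcgr1 and Csf1r had log2 fold changes of 1.15, 1.14, 1.21, 0.72, 0.56, 1.05 and 0.61. The value of Cd68 rested on KO-2 (0.34 without it). For C1qb, KO-1 (1533.5) lay inside the WT range of 1151 to 1579.5 and KO-2 (2721) above it. Cd68, C1qb, C1qc and Csf1r did not pass in filtered edgeR (adjusted p-values 0.0776, 0.126, 0.0552 and 0.0856). The summed normalised count of the list was 10484 to 11216 in WT, 16392 in KO-1 and 18477 in KO-2. Mertk, the marker that did not pass (log2 fold change 0.125), made up 3106 to 3953 of this sum in WT. It made up 3655 in KO-1 and 3866 in KO-2. Summed counts of H2-Aa, H2-Ab1, H2-Eb1 and Cd74 were 4127 to 7978 in WT, 6515 in KO-1 and 15260.0 in KO-2. Class II counts per macrophage count were 0.658 in WT-1, 0.394 in WT-2, 0.714 in WT-3, 0.711 in WT-4, 0.397 in KO-1 and 0.826 in KO-2. KO-2 was above every WT library in this ratio, and KO-1 was level with WT-2. Per pan-leukocyte count the same genes gave 3.24 to 5.95 in WT, 2.98 in KO-1 and 5.51 in KO-2. There KO-2 lay inside the WT range and KO-1 below it, so the place of each KO library depends on the markers used. In bulk tissue a different number of cells and a different amount of RNA per cell cannot be told apart.

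**Figure D3:**
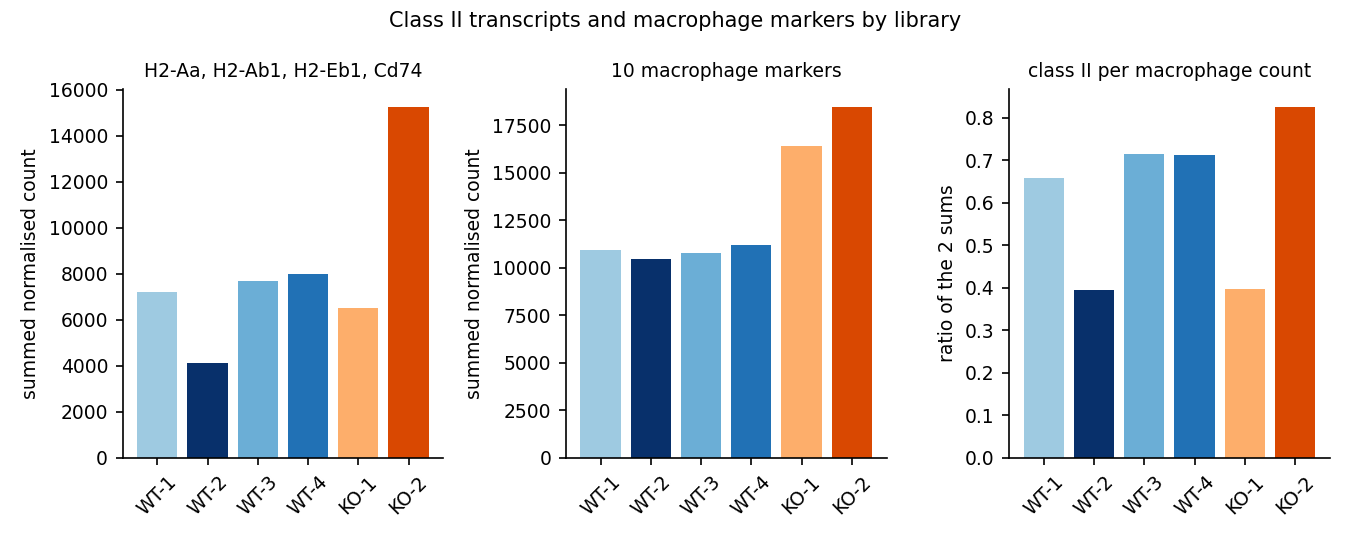
Summed normalised counts of 4 class II genes (left), of 10 macrophage markers (middle) and the ratio of these sums (right), 1 bar per library. Macrophage markers stand at 16392 and 18477 in the KO libraries against at most 11216 in WT, while the class II sum of KO-1 (6515) lies in the WT range and that of KO-2 (15260.0) above it, and the ratio is lowest in WT-2 and KO-1.

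Markers of other leukocytes were highest in KO-2 by their sums. Numbers that passed in this and the next paragraph stand beside 10.4% of all genes tested in DESeq2. Of 6 B cell markers 2 passed in DESeq2 (Pax5 and Ighm), 1 without WT-2 or WT-3, 0 without KO-2 or WT-4 and 0 in edgeR, and all 6 were higher in KO-2 than in any WT library. Their sum was 429 to 702 in WT, 571 in KO-1 and 2354 in KO-2. Cd79a and Ms4a1, defining B cell genes, had 0 counts in WT-3 and WT-4. For 8 dendritic cell markers DESeq2 found 0 past the adjusted p-value and 3 with an unadjusted p-value under 0.05, and edgeR found 0 and 2, while 1 passed without WT-2 or KO-1. Their sum was 546 to 619 in WT, 576 in KO-1 and 645 in KO-2. Most of this sum came from Zbtb46, which had 432 to 496 in WT, 414 in KO-1 and 353 in KO-2. Log2 fold changes were above 0 for 7 of the 8 dendritic cell markers and below 0 for Zbtb46 alone. Flt3, which defines these cells, had 0 counts in 5 libraries and 7 counts in KO-2, and Xcr1 had 0 counts in WT-1, WT-2 and WT-4, 5 in KO-1 and 21 in KO-2. Of 6 T cell markers 0 passed in DESeq2, with 1 under an unadjusted 0.05, and 0 and 0 in edgeR, while 1 passed without WT-3. The T cell sum was 9.4 to 61.9 in WT, 69 in KO-1 and 179 in KO-2, and Cd3e had 0 counts in WT-4. Pan-leukocyte markers passed in 2 of 5 (Ptprc and Cd53), in 4 without WT-1 and in 1 in edgeR, where Ptprc had an adjusted p-value of 0.061, with sums of 1273 to 1618 in WT, 2183 in KO-1 and 2769 in KO-2.

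Adipocyte markers passed in 2 of 6 (Plin1 and Fabp4), in 0 without KO-2, WT-1, WT-3 or WT-4, in 1 without WT-2, in 5 without KO-1 and in 0 with filtered edgeR, and their sum was 2076 to 3730 in WT, 3526 in KO-1 and 38303 in KO-2. Ucp1, the uncoupling protein of brown fat, had 112, 112, 123 and 0 counts before scaling from WT-1 to WT-4. It had 53 in KO-1, inside the WT range, and 5582 in KO-2. Endothelial markers passed in 3 of 6 (Kdr, Cdh5 and Tie1), though Tie1 did not pass in edgeR (adjusted p-value 0.0887) or without WT-1, WT-2, WT-3, KO-1 or KO-2, with sums of 8891 to 16646 in WT, 20050.0 in KO-1 and 22437 in KO-2. Fibroblast markers passed in 2 of 6 (Lum and Dpt), in 1 without WT-2 or in edgeR and in 3 without WT-3 or KO-2, with sums of 108630.0 to 121920.0 in WT, 137330.0 in KO-1 and 162360.0 in KO-2. For SMC markers 0 of 6 passed in DESeq2, 4 had an unadjusted p-value under 0.05, and edgeR gave 0 and 3. Log2 fold changes were above 0 for 2 of them (Myh11 0.36 and Lmod1 0.18) and below 0 for 4. Myh11 was above every WT library in both KO libraries (302510 in KO-1 and 359710 in KO-2, against at most 301060 in WT). Tagln, Cnn1 and Smtn were below every WT library in both KO libraries, and Tagln and Cnn1 passed as lower without WT-4, as did 1 marker without KO-2. The part of these cell types, and of the mitochondrial share of KO-2, in the values of the 10 genes was not tested.

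The other genes of the class II pathway were considered next. Of 18 genes, 15 were tested and 2 passed the DESeq2 adjusted p-value, both higher in KO. Of all genes tested 10.4% passed in either direction and 5.71% in the higher direction. The number for this list was 2 in filtered edgeR and 1 with the replicate number as a block. Ctss, cathepsin S, which trims the invariant chain, had normalised counts of 293 to 447 in WT, 807 in KO-1 and 1186 in KO-2. Ctss rose by 1.34 ± 0.25 (SE) on the log2 scale (DESeq2 adjusted p-value 9e-06) and passed in all 13 alternative fits. March1, a ubiquitin ligase that removes class II molecules from the cell surface, had 18.9 to 47.2 in WT, 104 in KO-1 and 171 in KO-2. March1 rose by 1.92 ± 0.46 (SE) on that scale (DESeq2 adjusted p-value 0.000976), and its adjusted p-value rose to 0.139 without KO-2, in a range from 0.000613 to 0.139. Both KO libraries exceeded every WT library in these genes, unlike in the class II members. Rfx5, Rfxap and Rfxank, which bind the X box shown above, had log2 fold changes of 0.16, -0.35 and -0.03 and did not pass. H2-DMb1, which encodes a partner chain of H2-DMa, had 197 to 333 in WT, 216 in KO-1 and 263 in KO-2. H2-Ea-ps, the pseudogene of the E α chain, had 0 counts in all 6 libraries, which allows up to 3 counts in each.

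Of 24 other class I pathway genes, 24 were tested and 2 passed, again both higher in KO. The share was near the 10.4% of all genes tested, and the number was 5 without WT-4 or KO-1 and 1 without KO-2 or in edgeR. H2-T24, a nonclassical class I gene, had 14.3 to 49.1 in WT, 142 in KO-1 and 168 in KO-2, a log2 fold change of 2.20 ± 0.48 (SE) with 0.000166 as the DESeq2 adjusted p-value. It passed in all 13 alternative fits, with the caution on similar copies given above. Cd1d1, which presents lipids to natural killer T cells, had 30 to 85.3 in WT, 82.7 in KO-1 and 527 in KO-2. KO-1 was inside the WT range, and the DESeq2 adjusted p-value of 0.000657 became 0.679 without KO-2 and 0.0678 in edgeR, in a range from 7.51e-08 to 0.679. Tap2, the partner of Tap1, and Tapbp, which joins the transporter to class I chains, had log2 fold changes of 0.13 and 0.02 and did not pass. Nlrc5, the class I transactivator, had 121 to 325 in WT, 241 in KO-1 and 204 in KO-2. The immunoproteasome genes Psmb8, Psmb9 and Psmb10 had log2 fold changes of 0.31, -0.05 and -0.08, none past the test.

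Among 17 interferon γ signalling genes, 16 were tested, with 3 higher and 1 lower in KO past the DESeq2 adjusted p-value. Of all genes tested 10.4% passed in either direction. Filtered edgeR gave 2 higher and 1 lower, and the replicate block gave 1 higher and 0 lower. Jak1, a kinase of the receptor, had 2291 to 2786 in WT, 3830 in KO-1 and 3860 in KO-2 (log2 fold change 0.59, DESeq2 adjusted p-value 0.00761). Ifngr2, a chain of the receptor, had 2320 to 2795 in WT, 1673 in KO-1 and 1568 in KO-2 and fell by 0.64 on the log2 scale (DESeq2 adjusted p-value 0.00361). With the replicate number as a block, neither Jak1 nor Ifngr2 passed (DESeq2 adjusted p-values 0.127 and 0.244). Jak1 also did not pass in edgeR without a filter (adjusted p-value 0.05003). The chemokine Cxcl9 had 3.13 to 25 in WT, 11.4 in KO-1 and 230 in KO-2, and its DESeq2 adjusted p-value of 0.00804 became 0.982 without KO-2, 0.208 without WT-1 and 0.0619 without WT-2, in a range from 0.000275 to 0.982. Irf1, an interferon-induced factor that acts on class I promoters, had a log2 fold change of -0.03. Ifng itself had at most 2 counts in any library. WT-2 was the lowest WT library in 8 of the 16 genes, against 18.7% of all genes tested.

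**Figure D4:**
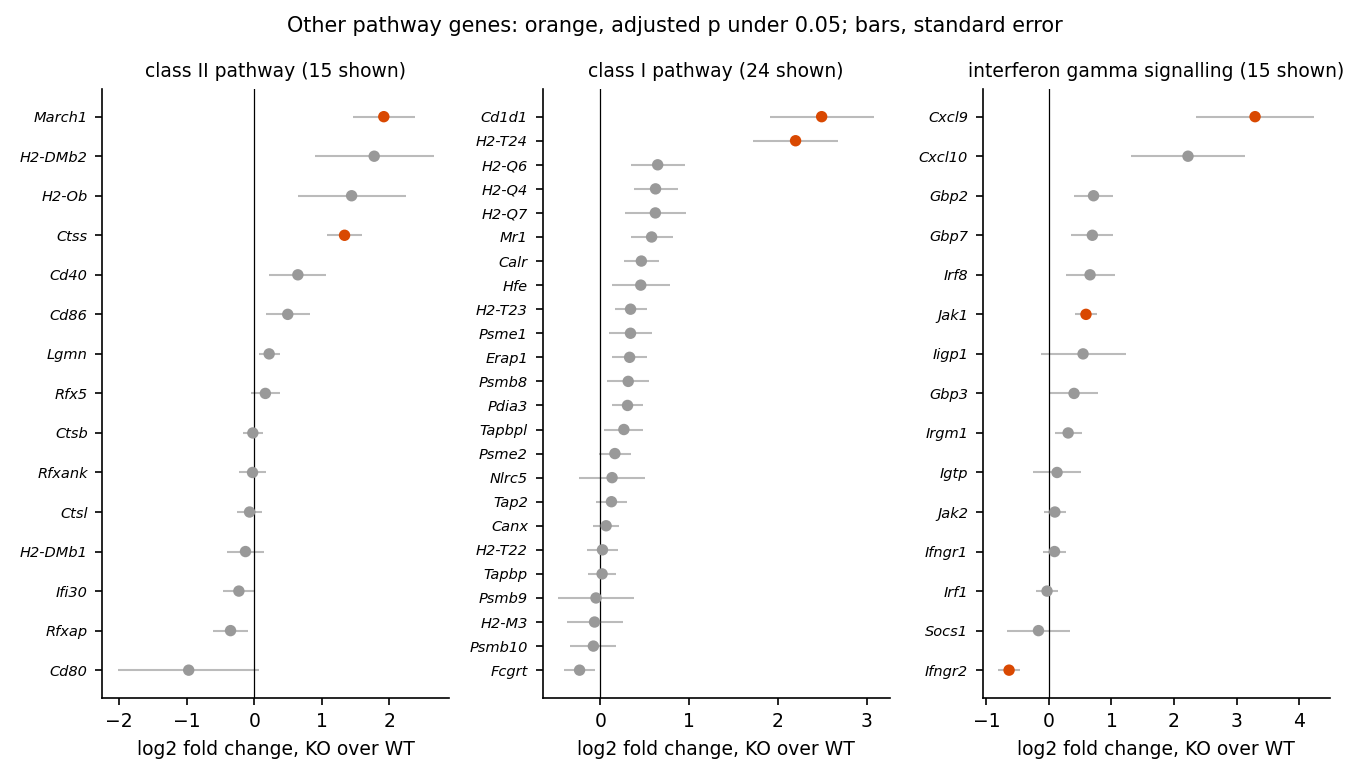
Log2 fold change of KO over WT with its standard error for the tested genes of the other class II pathway (15), other class I pathway (24) and interferon γ signalling (15 of 16), where orange marks a DESeq2 adjusted p-value under 0.05. Ctss and March1, H2-T24 and Cd1d1, and Jak1 and Cxcl9 are orange above 0, and Ifngr2 is orange below 0.

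Position in the genome was shared by 7 of the 10 genes. H2-K1, H2-DMa, Tap1, H2-Ab1, H2-Aa, H2-Eb1 and H2-D1 lie in this order on chromosome 17 between 33996017 and 35267499 (GRCm38). Cd74, Ciita and B2m lie on chromosomes 18, 16 and 2. The stretch from H2-K1 to H2-D1 held 134 genes, of which 75 were tested and 8 passed the DESeq2 adjusted p-value, 4 higher and 4 lower in KO. H2-K1 was the only member among them. The share of 10.7% was near the 10.4% of all genes tested.

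The genes with the pattern most like that of the class II chains and Cd74 over the 6 libraries were Prkar1b (Pearson r 0.99), Slc10a7, Hnrnpul1, Gse1, Kcnq5, Sc5d, Nhs and Rnf20 (r at least 0.97). For the class I members they were Zfp820, 1700008J07Rik, Dynlrb1, Slc25a42, Traf3ip2, Lcp1, Dhdh and Pknox2 (r at least 0.98). Among 12489 genes compared, r was over 0.9 in 0.777% for class II and in 2.85% for class I. With 6 libraries such values describe a shared profile, high in KO-2 for both patterns and low in WT-2 for class II. They can rest largely on such a library and need not mean the same order of the others.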

How the data were processed

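The data are bulk RNA-seq of 6 thoracic aortas. The authors trimmed reads with Trim Galore, mapped them to GRCm38 with HISAT2 and quantified genes with StringTie on GENCODE M15. The values the authors deposited are gene-level estimated counts in whole numbers, not scaled for depth, and how coverage was converted to counts is not given in the sources used here. Names, positions and exon lengths came from GENCODE M21, which matched 52489 of 52636 identifiers. DESeq2 1.42.0 in R 4.3.3 compared KO with WT over all genes (Wald test, group as the only term), with p-values adjusted over all genes tested by the method of Benjamini and Hochberg, at a threshold of 0.05, and a fold threshold of 2 where stated. Fold changes of a single library used a pseudocount of 0.5. Alternatives were edgeR 4.0.16 with and without a filter, TMM or total-count scaling, a mean count minimum of 10, no Cook's distance handling, a replicate block and each library left out. Both tools were tested on simulated data.

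Members and lists were chosen with earlier results of these data known. Named were all members, list genes past the adjusted p-value (up to 8 a list) or leading a list, and the 8 genes outside the lists most correlated with each class (mean normalised count of at least 50). Other genes were chosen after their values were seen, and 1 list gene is counted but not reported here by name. The labels do not say how replicates were separated beyond their numbers, so p-values measure the spread between these libraries. Precision is limited by depth (19650983 to 28860598 counts) and by 2 KO libraries, and limits from a count of 0 cover counting error only.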

Additional observations from a re-analysis of the deposited data

Results flagged for a closer look

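Among 30 results checked for a single WT library standing apart, 2 were found where chance would give 1.5, and both were low values of WT-2. These 2 genes, Cd74 and H2-Ab1, correlated at 0.994 over the 4 WT libraries, so they are not separate findings to set against that number. Cd74 had 2337 normalised counts in WT-2 while the remaining WT libraries had 4140 to 4448, and its distance to the nearest of them was 0.854 of the WT range. H2-Ab1 had 578 in WT-2 against 994 to 1073, with a distance of 0.84 of the range. The 2 KO libraries are too few to be examined in this manner.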

How the results depend on the processing

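The members past the adjusted p-value numbered 2 (1 above 2-fold) and stayed at 2 with TMM or total-count scaling, a mean count minimum and no Cook's distance handling. edgeR with and without a filter called 0. Leaving out libraries gave 0 to 5 past the adjusted p-value and 0 to 5 above 2-fold. All genes called numbered 962, 633 in edgeR with a filter and from 636 to 1284 with a library left out. Other list genes past the adjusted p-value numbered 28, 15 in edgeR with a filter, 16 without, and from 18 to 37 with a library left out. Log2 fold changes were reversed without KO-2 and highest without KO-1 when libraries were left out, from -0.0757 to 1.07 for H2-DMa, -0.166 to 1.29 for Cd74, -0.365 to 0.907 for Ciita, -0.326 to 0.567 for Tap1, -0.0931 to 4.24 for Cxcl9 and -0.034 to 1.96 for Ighm. With the replicate number as a block, 1 member passed the adjusted p-value (B2m), 561 genes were called and 17 other list genes passed. Whether these numbers pair the libraries is not known. Deviations from the group means correlated at -0.07 (WT-1 with KO-1) and 0.01 (WT-2 with KO-2). With 2 KO libraries the KO deviations mirror each other, so these correlations cannot decide whether libraries were paired. Apart from the construction of these fits, the cause was not tested. Depth limits Ciita and the lymphocyte and dendritic cell markers, and 2 KO libraries that differ limit all comparisons.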
